A study of Mus musculus with 4 samples.

Results

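The 10 genes described here carry the thyroid hormone and glucocorticoid signals of the cell: Thra, Thrb, Dio2, Hr and Klf9 on the thyroid side, and Nr3c1, Fkbp5, Tsc22d3, Sgk1 and Per1 on the glucocorticoid side. They were chosen by name as a pathway set, by a rule that uses no measured value but was written with earlier results of these data known, and each matched 1 row of the 29224 genes in the count and FPKM tables. RNA was sequenced from astrocytes of the postnatal day 5 mouse cortex, collected with magnetic beads against GLAST (ACSA-1), a glutamate transporter on the astrocyte surface. The 2 Ezh2 f/f libraries came from mice with both floxed alleles of Ezh2, the histone methyltransferase that deposits the repressive mark H3K27me3. The 2 Ezh2 cKO libraries came from Ezh2 flox/flox mice bred with Aldh1l1-icre, in which recombination depends on the promoter of the astrocyte gene Aldh1l1, so both groups share the floxed alleles and the labels name no treatment. Each library is named as a separate sample; whether a library held 1 animal or several is not given in the sources used here, so the p-values measure the spread between these libraries, which may be technical.

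Thyroid hormone enters the brain largely as T4, and astrocytes turn it into the active form T3 with the type 2 deiodinase that Dio2 encodes. T3 binds the nuclear receptors TRα (Thra) and TRβ (Thrb), which sit on DNA with a retinoid X receptor and switch targets such as Hr and Klf9. Glucocorticoids bind the receptor encoded by Nr3c1, which waits in the cytoplasm with HSP90 chaperones and moves to the nucleus to act on targets such as Fkbp5, Tsc22d3, Sgk1 and Per1. FKBP5 lowers the hormone affinity of that receptor, which makes it part of a feedback loop, and Klf9 responds to both hormones.

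The libraries held 16273308 to 17522152 counts in genes, so 3 counts correspond to 0.171 to 0.184 CPM. A gene was called when the adjusted p-value of edgeR's quasi-likelihood test was under 0.05 over the 16793 genes with enough counts. Ezh2 itself had 434 and 327 counts in Ezh2 f/f, against 211 and 164 in Ezh2 cKO (log2 fold change -1.11, adjusted p = 3.26e-05), a level 0.464 times that of Ezh2 f/f. The astrocyte label was checked against marker lists. The 14 astrocyte markers summed to 104 and 107 FPKM in Ezh2 f/f, against 540 and 483 in Ezh2 cKO, with 12 of them called higher and 2 not called. The 15 neuron markers summed to 2981 to 3184 FPKM over the 4 libraries, far above the astrocyte markers in each, with 10 higher and 3 lower. That level sum is carried by few genes and hides opposite shifts, shown by 3 markers chosen after their values were seen. Tubb3, a neuronal tubulin, made up the largest share and fell (1859 and 1897 against 1223 and 1207 FPKM), as did Dcx, a marker of immature neurons (48.1 and 46.7 against 16.4 and 19.4 FPKM), whereas Slc17a7, the vesicular glutamate transporter of excitatory neurons, rose (24.3 and 20.7 against 264 and 252 FPKM). Markers of oligodendrocyte precursors (8 of 8 higher, 52.2 to 52.4 against 184 to 208 FPKM) and microglia (10 of 10 higher, 59.5 to 60.01 against 147 to 168 FPKM) were higher in Ezh2 cKO, and 10 of 12 neural progenitor and cycling markers were lower (153 to 156 against 51.7 to 52.1 FPKM). The 20 immediate early genes, which respond to handling, had 8 higher and 5 lower; endothelial and mural markers had 4 higher and 1 lower each, erythrocyte markers 3 higher of 5, and choroid plexus and ependymal markers 2 higher and 5 lower. No list had a marker at 0 in every library. These lists move with the same groups as the 8 called members, and their part in those changes was not tested. In such bulk libraries a change in the number of cells of a type and a change in RNA per cell cannot be told apart.

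**Figure D1:**
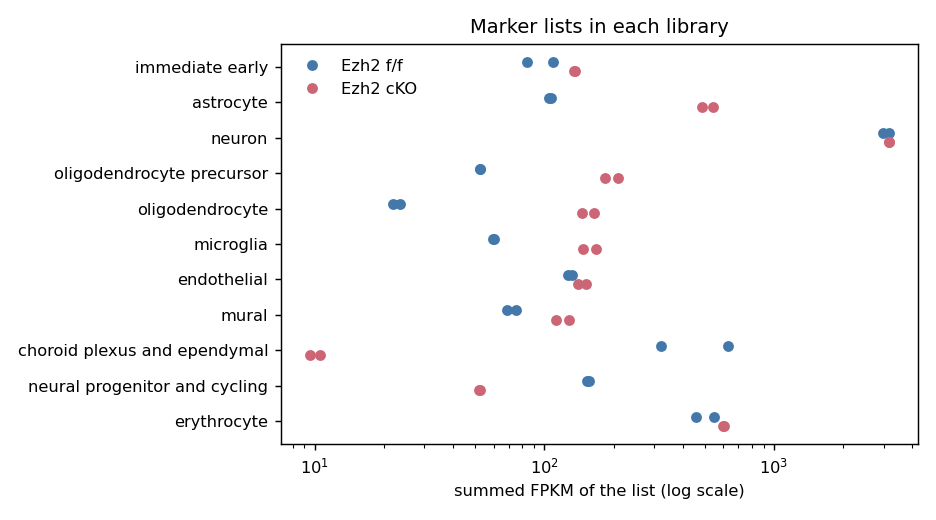
Summed FPKM of each marker list in each library on a log axis, with 2 points per group. Neuron markers, a sum that Tubb3 dominates, stand between 2981 and 3184 FPKM in the 4 libraries, astrocyte markers at 104 and 107 in Ezh2 f/f, and at 483 and 540 in Ezh2 cKO, and choroid plexus and ependymal markers are lower in Ezh2 cKO.

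In Ezh2 cKO libraries the 5 genes Thrb, Dio2, Hr, Klf9 and Nr3c1 rose, by between 2.79-fold and 7.05-fold. Fkbp5 and Per1 fell, with Ezh2 f/f levels 2.67 and 2.51 times those of Ezh2 cKO, and Thra fell slightly. Tsc22d3 and Sgk1 did not pass the test. All 10 members entered the test, and 8 were called, against 68.4% of all tested genes. The 5 higher calls stand beside 34.7% of tested genes called higher, and the 3 lower calls beside 33.6% called lower. With a change of at least 2-fold also required, 7 members were called, against 33.0% of tested genes. The libraries of the groups did not overlap in CPM (counts per library size after TMM scaling) for 8 members, against 84.3% of tested genes. By size, 4.10% of tested genes had a larger absolute log2 fold change than Thrb, 5.81% than Klf9, 5.97% than Dio2 and 8.40% than Nr3c1. The share was 18.3% for Hr, 19.8% for Fkbp5 and 22.2% for Per1. It was 74.9% for Thra, 98.7% for Tsc22d3 and 99.1% for Sgk1.

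**Figure D2:**
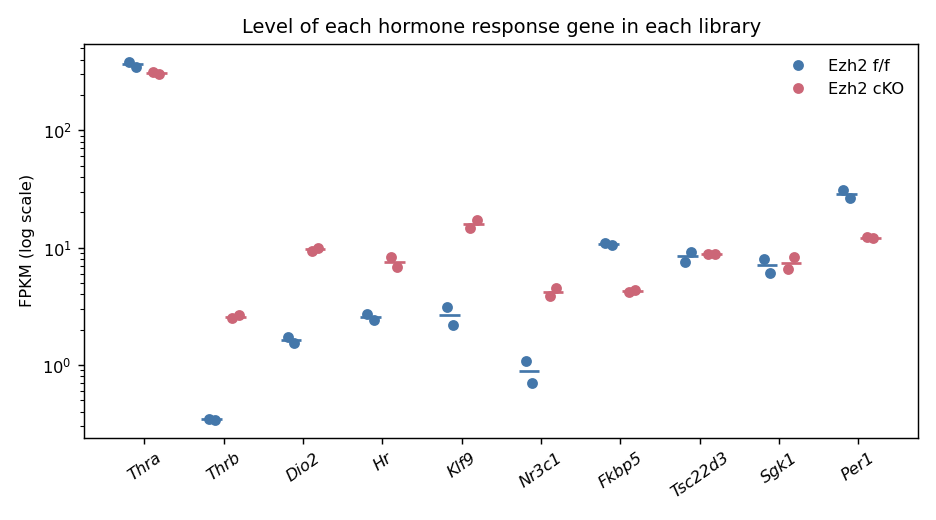
FPKM of each of the 10 genes in each library on a log axis, with 2 points per group and a short line at the group mean. Thra lies between 300 and 383 FPKM in the 4 libraries while Thrb lies between 0.341 and 2.64, and the groups overlap only for Tsc22d3 and Sgk1.

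A hormone receptor or another factor can act at the start of a gene. The 300 bases around each annotated start (250 before it, 50 after it) were therefore searched on both strands. The windows come from RefSeq on GRCm38.p6 and matched 7 of the 10 genes with 16 windows; those of Thra, Hr and Nr3c1 were not analysed here. The letters searched were AGAACA (the core bound by the glucocorticoid receptor), 2 copies of AGAACA facing each other across a gap of 3 bases, AGGTCA (the core bound by thyroid hormone receptors), a direct repeat of AGGTCA with a gap of 4 bases, the E-box CACGTG (bound by clock factors) and the cAMP element TGACGTCA. Dio2 and Thrb are shown because they rose on the thyroid side, Per1 and Fkbp5 because they fell, and Sgk1 because it did not pass the test and holds the full facing pair; capitals mark the matched letters.
Dio2, chr12:90738989-90739288, minus strand: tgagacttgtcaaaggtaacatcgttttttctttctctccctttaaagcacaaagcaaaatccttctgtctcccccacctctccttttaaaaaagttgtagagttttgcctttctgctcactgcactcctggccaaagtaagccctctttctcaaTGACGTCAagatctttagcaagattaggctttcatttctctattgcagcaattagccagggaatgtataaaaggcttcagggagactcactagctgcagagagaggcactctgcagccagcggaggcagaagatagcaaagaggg
Thrb, chr14:17660710-17661009, plus strand: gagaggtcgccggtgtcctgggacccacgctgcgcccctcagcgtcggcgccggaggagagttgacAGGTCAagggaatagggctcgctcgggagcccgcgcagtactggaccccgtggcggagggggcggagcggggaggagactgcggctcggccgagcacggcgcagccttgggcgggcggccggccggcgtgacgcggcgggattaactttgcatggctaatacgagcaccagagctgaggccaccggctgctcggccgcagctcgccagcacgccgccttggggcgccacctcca
Per1, chr11:69098699-69098998, plus strand: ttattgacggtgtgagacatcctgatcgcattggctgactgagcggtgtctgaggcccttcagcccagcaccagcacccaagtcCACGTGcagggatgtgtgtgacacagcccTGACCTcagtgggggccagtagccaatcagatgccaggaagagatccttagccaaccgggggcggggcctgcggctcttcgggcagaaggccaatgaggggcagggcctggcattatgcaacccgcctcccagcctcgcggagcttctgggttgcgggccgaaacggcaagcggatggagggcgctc
Fkbp5, chr17:28486100-28486399, minus strand: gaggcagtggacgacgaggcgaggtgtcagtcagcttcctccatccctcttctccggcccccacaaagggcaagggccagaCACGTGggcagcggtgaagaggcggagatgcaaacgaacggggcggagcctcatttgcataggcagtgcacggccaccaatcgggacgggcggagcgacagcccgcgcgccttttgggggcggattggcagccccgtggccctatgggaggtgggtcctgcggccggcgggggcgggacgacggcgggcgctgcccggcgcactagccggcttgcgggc
Sgk1, chr10:21993640-21993939, plus strand: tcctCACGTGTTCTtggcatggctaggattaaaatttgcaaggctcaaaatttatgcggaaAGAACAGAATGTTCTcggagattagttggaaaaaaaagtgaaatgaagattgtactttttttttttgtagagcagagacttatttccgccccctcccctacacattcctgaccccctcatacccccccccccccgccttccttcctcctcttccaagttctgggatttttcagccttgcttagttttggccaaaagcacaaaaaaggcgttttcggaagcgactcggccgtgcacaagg

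The Sgk1 window above, the fifth of its 6 windows by RefSeq order, held the facing pair of AGAACA beginning 189 bases before the start, a pattern found in 3 of 32851 windows of all genes (0.00913%). A further AGAACA core on the opposite strand began 242 bases before the start and shares its leading letters with an E-box that began at 246. The Dio2 window held TGACGTCA beginning 95 bases before the start, as did 1.79% of all windows. Single AGGTCA cores occurred in 16.3% of all windows, and lay in Thrb (184 bases before the start), in Per1 (137 bases, opposite strand) and in 2 further Sgk1 windows. The E-box, present in 7.15% of all windows, lay 166 bases before the Per1 start and 169 bases before that of Fkbp5. The single AGAACA core occurred in 19.0% of all windows, and lay in 2 further Sgk1 windows, 1 of the 3 Tsc22d3 windows and the second Thrb window, which also held an E-box. The direct repeat of AGGTCA was found in 5 windows (0.0152%), none of them a member's. The Klf9 window held none of these letters. A match is a run of letters and not a bound site, and these libraries do not measure binding. Sequence outside the windows was not searched, so a missing match says nothing about sites elsewhere in or around a gene.

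The windows also differed in base composition. The Dio2 window had a GC content of 44.7% and a CpG observed-to-expected ratio of 0.202, below the median of all windows (52.7% and 0.384). The Thrb window shown had 72.7% GC and a CpG ratio of 0.946, the Klf9 window 63.3% and 0.962, and the Fkbp5 window 70.7% and 0.872. These CpG-rich starts thus belonged to Thrb and Klf9, which rose, and to Fkbp5, which fell. The second Thrb window was CpG-poor (46.0% and 0.255), and the Per1 windows had CpG ratios of 0.536 and 0.675. Sgk1 and Tsc22d3, which were not called, had windows on both sides of the median ratio. The Sgk1 windows ranged from 0.206 to 0.770, and the Tsc22d3 windows had ratios of 0.594, 0.710 and 0.169.

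Thra, the more abundant of the thyroid hormone receptor genes, encodes TRα (ENSMUSG00000058756, chromosome 11, 98631464 to 98659832 on the plus strand as deposited) and was the highest of the 10 genes in every library. Its counts were 30930 and 26077 in Ezh2 f/f, against 25284 and 23095 in Ezh2 cKO, or 383, 347, 316 and 300 FPKM, which ranked it between 76 and 95 among all genes of its library. Both Ezh2 cKO libraries lay below both Ezh2 f/f libraries, and the log2 fold change was -0.33 (SE 0.074, 95% interval -0.49 to -0.17, adjusted p = 0.00130). The call was lost when limma was run on log2(FPKM + 1) without a filter (-0.24, adjusted p = 0.101). Thra overlaps the clock gene Nr1d1 on the other strand by 1075 bases, and Nr1d1 rose (523 and 404 against 786 and 810 counts, log2 fold change 0.70). The use of strand in counting is not given in the sources used here, so the reads of the shared stretch are uncertain, and gene counts do not separate the hormone-binding TRα1 from the other Thra products.

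Thrb, which encodes TRβ (ENSMUSG00000021779, chromosome 14, 4431611 to 4809435 on the minus strand as deposited, but on the plus strand in GRCm38, the build of the promoter window shown above), was the lowest of the 10 genes in both groups. It had 45 and 41 counts, or 0.347 and 0.341 FPKM, in the Ezh2 f/f group, against 322 and 326 counts in Ezh2 cKO (2.51 and 2.64 FPKM). The libraries of each group lay close together and far from those of the other, and Thrb had the largest change of the members, 7.05-fold (log2 fold change 2.82, SE 0.18, 95% interval 2.43 to 3.21, adjusted p = 1.18e-08). With limma on log2(FPKM + 1) the change was 1.41, since that scale shrinks the change of genes near 1 FPKM. Per length, Thra exceeded Thrb by 1102 and 1020 times in Ezh2 f/f and by 126 and 114 times in Ezh2 cKO. TRα transcripts therefore stayed far above TRβ transcripts in every library.

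Nr3c1, the glucocorticoid receptor gene (ENSMUSG00000024431, chromosome 18, 39543598 to 39652474 on the minus strand as deposited), had 146 and 87 counts, or 1.08 and 0.696 FPKM, in the Ezh2 f/f group, against 513 and 585 in Ezh2 cKO (3.85 and 4.56 FPKM). Relative to their level, the Ezh2 f/f libraries differed from each other more than those of Ezh2 cKO, without overlap between groups. The rise was 4.44-fold (log2 fold change 2.15, SE 0.18, 95% interval 1.76 to 2.54, adjusted p = 1.50e-07), and 1.47 on the log2 scale with limma on log2(FPKM + 1).

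The related mineralocorticoid receptor gene Nr3c2, whose product binds the same hormones with higher affinity, had 184, 140, 261 and 312 counts and rose (log2 fold change 0.73, adjusted p = 0.00142). In FPKM, Nr3c1 stood at 0.669 and 0.524 times Nr3c2 in Ezh2 f/f, and at 1.66 and 1.58 times in Ezh2 cKO, so the order of these receptors differed between the groups. Among the 6 tested genes of the list of steroid receptors and glucocorticoid conversion other than Nr3c1, 5 were higher and 1 was not called (median log2 fold change 1.94, against 0.015 over all tested genes). Hsd11b1, the enzyme that regenerates active glucocorticoid inside cells, rose from 14 and 12 counts to 195 and 191 (log2 fold change 3.79). Pgr, the progesterone receptor gene, had 45 and 37 against 248 and 252 counts, and Esr1, an oestrogen receptor gene, 25 and 13 against 58 and 46; both rose.

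**Figure D3:**
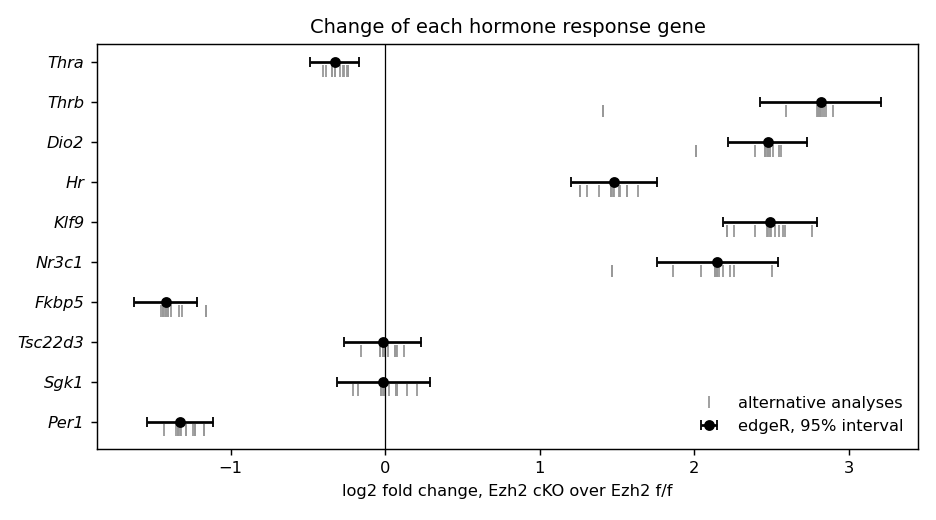
Log2 fold change of each gene, Ezh2 cKO over Ezh2 f/f, with its 95% interval from edgeR (black) and the values from 13 alternative analyses (grey ticks). The intervals of Tsc22d3 and Sgk1 span 0 and those of the other 8 genes do not; the lone tick left of the Thrb cluster is 1.41, from limma on log2(FPKM + 1), where 2 of the alternatives coincide.

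Dio2, the enzyme that makes T3 inside cells (ENSMUSG00000007682, chromosome 12, 90691326 to 90705212 on the minus strand as deposited), had 175 and 146 counts in Ezh2 f/f, against 949 and 954 in Ezh2 cKO, or 1.72 and 1.54 against 9.42 and 9.84 FPKM. Both Ezh2 cKO libraries lay far above both Ezh2 f/f libraries, a 5.56-fold rise (log2 fold change 2.48, SE 0.12, 95% interval 2.22 to 2.73, adjusted p = 7.40e-10). It overlaps the non-coding RNA Gm26512 by 238 bases on the other strand, which had at most 13 counts in any library. Dio3, the deiodinase that inactivates T4 and T3, changed in the other direction: 157 and 139 counts in Ezh2 f/f fell to 25 and 29 in Ezh2 cKO (log2 fold change -2.54).

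Of the 9 other tested genes of thyroid hormone transport and conversion, 3 were higher, 4 lower and 2 not called (median 0.070); Dio1 has no row in the tables. Crym, a cytosolic protein that binds T3, rose (log2 fold change 2.10), and so did Slco1c1, which carries T4 across the blood-brain barrier (1.04). Ttr, the T4 carrier made by the choroid plexus, had 6326 and 11598 counts in Ezh2 f/f, against 5 and 12 in Ezh2 cKO. It is also 1 of the choroid plexus and ependymal markers, whose summed level was 321 and 627 FPKM in Ezh2 f/f, against 10.6 and 9.49 in Ezh2 cKO, almost all of it Ttr in Ezh2 f/f; the part of these markers in the Ttr change was not tested.

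Hr, a nuclear co-repressor induced by T3 (ENSMUSG00000022096, chromosome 14, 70789652 to 70810988 on the plus strand as deposited), had 330 and 271 counts in Ezh2 f/f, against 1002 and 785 in Ezh2 cKO (2.72, 2.41, 8.36 and 6.80 FPKM). The groups did not overlap, and the rise was 2.79-fold (log2 fold change 1.48, SE 0.13, 95% interval 1.20 to 1.76, adjusted p = 2.12e-07). Klf9, a zinc finger repressor (ENSMUSG00000033863, chromosome 19, 23118590 to 23145498 on the plus strand as deposited), had 264 and 173 counts against 1224 and 1384 (3.13 and 2.21 against 14.7 and 17.2 FPKM). Its rise was 5.62-fold (log2 fold change 2.49, SE 0.14, 95% interval 2.19 to 2.79, adjusted p = 3.37e-09), and the microRNA Mir1192 inside it had at most 1 count. Klf9 went from the sixth to the second highest of the 10 genes by mean FPKM. Its relative Klf13 rose by 1.09 on the log2 scale, while Klf15, a glucocorticoid-induced member of the family, fell by 0.63.

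Beside Hr and Klf9, 9 further thyroid hormone targets were tested, of which 6 were higher, 2 lower and 1 not called (median 1.45). Mbp, a myelin protein gene, rose from 640 and 682 counts to 8429 and 6913 (log2 fold change 3.44). Nrgn, a postsynaptic calmodulin-binding protein gene of forebrain neurons, rose by 3.11 on that scale, beside 10 of 15 neuron markers called higher, whose part in it was not tested. Dbp, a clock output factor also on the list, rose by 1.70. Atp2a1, a calcium pump of fast muscle, had 26 and 23 counts in control libraries (Ezh2 f/f) and 3 in each Ezh2 cKO library, a ratio of 8.22 per listed read (exact 95% counting interval 3.52 to 23.5). Atp2a1 is among the 2 lower calls, although it passed the count filter only through the Ezh2 f/f libraries. The median of all 11 tested targets was 1.48. Atp2a1 lay below that median at its fitted value and at this ratio, so the choice between them could not move the median. Mbp is also an oligodendrocyte marker, and the 8 tested genes of that marker list were all called higher (summed level 21.9 and 23.4 FPKM in Ezh2 f/f, 165 and 146 FPKM in Ezh2 cKO); the part of that shift in the Mbp value was not tested.

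Of the 16 retinoid X receptor partners and coregulators tested, 2 were higher, 9 lower and 5 not called (median -0.51). The lower ones include Gps2, a subunit of the NCoR co-repressor complex (1714 and 1654 counts against 518 and 442, log2 fold change -1.90), the acetyltransferase genes Crebbp (-1.24) and Ep300 (-0.90), and the Mediator subunit gene Med1 (-0.91).

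**Figure D4:**
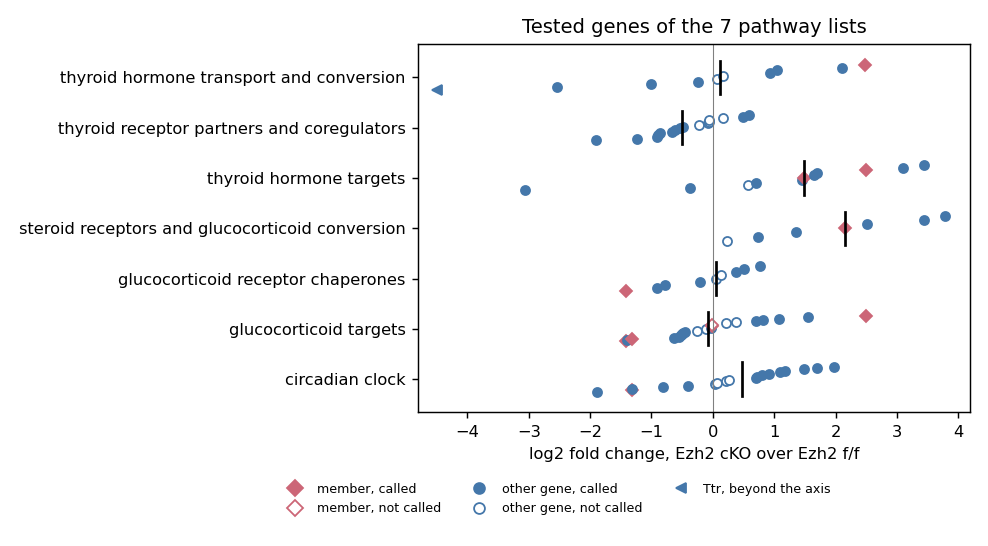
Log2 fold change, Ezh2 cKO over Ezh2 f/f, of each tested gene in 7 pathway lists, with the members as diamonds, filled symbols for called genes and a bar at each list's median. Steroid receptors and thyroid hormone targets lie mostly to the right (medians with members 2.15 and 1.48) and coregulators mostly to the left (-0.51). Ttr is drawn at the left edge because its value lies beyond the axis, and Atp2a1 is drawn at its fitted value.

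Of the 5 members on the list of glucocorticoid targets, Klf9 rose (above), Fkbp5 and Per1 fell, and Tsc22d3 and Sgk1 were not called. Fkbp5 (ENSMUSG00000024222, chromosome 17, 28618068 to 28736501 on the minus strand as deposited) had 1814 and 1631 counts in Ezh2 f/f, against 684 and 688 in Ezh2 cKO, or 10.9 and 10.6 against 4.17 and 4.36 FPKM. The libraries of each group were close together, and the log2 fold change was -1.42 (SE 0.095, 95% interval -1.62 to -1.22, adjusted p = 1.55e-08). Fkbp5 fell while Nr3c1 rose, so the ratio of Fkbp5 to Nr3c1 in FPKM was 10.1 and 15.2 in Ezh2 f/f, against 1.08 and 0.954 in Ezh2 cKO. Fkbp4, the co-chaperone that competes with FKBP5 for the receptor complex and favours its entry into the nucleus, changed little (log2 fold change -0.21, adjusted p = 0.0413). It stood at 7.58 and 8.17 times Fkbp5 in Ezh2 f/f, and at 18.7 and 17.7 times in Ezh2 cKO.

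Per1, a repressor of the circadian clock that glucocorticoids induce (ENSMUSG00000020893, chromosome 11, 68986043 to 69000786 on the plus strand as deposited), had 3028 and 2441 counts in Ezh2 f/f, against 1195 and 1125 in Ezh2 cKO (30.7, 26.6, 12.2 and 11.98 FPKM). Both Ezh2 cKO libraries lay well below both Ezh2 f/f libraries, and the log2 fold change was -1.33 (SE 0.099, 95% interval -1.54 to -1.11, adjusted p = 4.41e-08). Per2 fell alongside (511 and 415 counts against 220 and 176, -1.31), whereas Per3 rose (145 and 141 against 266 and 268, 0.81). The time of day at which animals were taken is not given in the sources used here, so any difference in it and the genotype cannot be told apart.

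Tsc22d3, which encodes the anti-inflammatory protein GILZ (ENSMUSG00000031431, chromosome X, 139440277 to 139501408 on the minus strand as deposited), had 577 and 652 counts in Ezh2 f/f, against 657 and 644 in Ezh2 cKO (7.59, 9.23, 8.73 and 8.89 FPKM). The groups overlapped, and the log2 fold change was -0.015 (SE 0.12, 95% interval -0.26 to 0.23, adjusted p = 0.916). Sgk1, a kinase that regulates ion channels and transporters (ENSMUSG00000019970, chromosome 10, 21758083 to 21875802 on the plus strand as deposited), had 690 and 482 against 555 and 679 counts (8.03 and 6.04 against 6.53 and 8.30 FPKM). Its groups also overlapped, with a log2 fold change of -0.010 (SE 0.14, 95% interval -0.31 to 0.29, adjusted p = 0.955). The sign of both estimates changed with the processing, so no direction is given for them. Changes of Tsc22d3 and Sgk1 inside those intervals are not excluded.

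The relatives of these genes did not move as blocks. Tsc22d4 rose by 0.82 and Tsc22d1 fell by 0.59 on the log2 scale, while Tsc22d2 was at -0.19 and was not called. Sgk3 rose by 1.12, and Sgk2 had between 2 and 8 counts and was not tested. Over all 11 tested relatives that are no members, 5 were higher, 5 lower and 1 not called.

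Of 17 glucocorticoid targets other than the members, 4 were higher, 7 lower and 6 not called (median -0.11); Mt2 has no row in the tables. Angptl4, a lipase inhibitor, rose by 1.55, Fam107a, an actin-binding stress protein, by 1.08, and Glul, the glutamine synthetase of astrocytes, by 0.82 on the log2 scale. Cebpd, a transcription factor of acute stress, fell from 205 and 132 counts to 68 in each Ezh2 cKO library (-1.39). Of 8 chaperone genes of the receptor complex other than Fkbp5, 3 were higher, 3 lower and 2 not called (median 0.094). The stress-inducible HSP90 gene Hsp90aa1 rose by 0.77 and the constitutive Hsp90ab1 fell by 0.77 on the log2 scale. Dnajb1, an HSP40 co-chaperone, fell by 0.92 and Bag1, an HSP70 nucleotide exchange factor, rose by 0.50.

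Of 17 clock genes other than Per1, 9 were higher, 4 lower and 4 not called (median 0.70). Npas2, a partner of BMAL1, rose by 1.97 and the repressor Bhlhe41 by 1.49 on the log2 scale, while Cry1, which represses the clock together with the PER proteins, fell from 836 and 770 counts to 220 and 242 (-1.89). Across the 81 tested genes of all 7 pathway lists that are no members, 31 were higher, 29 lower and 21 not called, or 74.1% called beside the 68.4% of all tested genes.

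Ordered by mean FPKM, the Ezh2 f/f libraries ran from Thra, Per1, Fkbp5, Tsc22d3 and Sgk1 down to Klf9, Hr, Dio2, Nr3c1 and Thrb. In that order Tsc22d3 and Sgk1 overlapped between libraries, as did Klf9 and Hr, and the other neighbours did not. In Ezh2 cKO the order was Thra, Klf9, Per1, Dio2, Tsc22d3, Hr, Sgk1, Fkbp5, Nr3c1 and Thrb, with overlap between Hr and Sgk1 and between Fkbp5 and Nr3c1. Thra stayed at the top and Thrb at the bottom in both.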

How the data were processed

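RNA-seq libraries of bead-sorted P5 cortical astrocytes were analysed from 2 tables deposited by the authors: raw read counts per gene, and FPKM (counts per gene length and listed total; 100% of values within 0.1%). The submitters' processing notes name Bowtie2 2.2.3, TopHat2 2.0.12, HTSeq 0.6.0 and mm9. The build of the deposited coordinates is not given with them: 581 of 28799 genes matched by identifier, and 0 of the 10 members, have the same coordinates on GRCm38, so positions are given as in the tables, without conversion. The authors' own fold changes and p-values in the count table were not used. The series' design text pairs the W and C sample titles with wild type and cKO.

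Counts were filtered with filterByExpr, scaled by TMM (factors 0.976, 0.967, 1.019 and 1.040) and fitted with edgeR 4.0.16 quasi-likelihood (R 4.3.3), with the group as the only term, 4 libraries and 2 per group. Benjamini-Hochberg adjustment ran over the 16793 genes that passed the filter, and calls were made at an adjusted p under 0.05. Fold changes divide Ezh2 cKO by Ezh2 f/f, intervals are 95%, and both cover the spread of 2 libraries per group. FPKM are not TMM-scaled. Replicates differed by more than counting error (chi-square over degrees of freedom 9.70 for Ezh2 f/f, 6.10 for Ezh2 cKO). Alternatives were DESeq2 1.42.0, DESeq2 size factors in edgeR, library totals only, no filter, a mean of at least 50 counts, limma 3.58.1 on log2(FPKM + 1) with and without a filter (1 FPKM in 2 libraries) and on log2(FPKM + 0.1), a replicate block and leaving out each library. The scripts were tested on simulated data, in which limma on log2 FPKM made more false calls than its nominal rate; it serves only as an alternative. Counting intervals and the floor of 3 counts cover counting error only.

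The members, the gene lists and the tests were chosen with earlier results of these data known. Named genes are all members and, per pathway list, up to 4 called genes with the largest absolute log2 fold change, besides listed relatives of the members, overlapping genes, Ezh2 and list totals of markers. For the list of steroid receptors, 1 gene that this rule would name is not reported here.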

Additional observations from a re-analysis of the deposited data

How the results depend on the processing

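Over 13 alternatives, 116 of 130 member values kept their direction and their side of the threshold. The number of members called higher was 5 under all 13, and the number called lower was 3 except under limma on log2(FPKM + 1) without a filter, where it was 2 because Thra missed the threshold. In simulated data limma on log2 FPKM, tested at 1 setting, made more false calls than its nominal rate, so calls under the 3 limma settings carry less weight than those of the other 10 alternatives. The sign of the 2 uncalled genes turned, the cause of which was not tested. Tsc22d3 was at 0.069 with library totals only, 0.019 with a mean of at least 50 counts, 0.066 with limma on log2(FPKM + 1) with or without a filter and 0.074 with limma on log2(FPKM + 0.1), and it ranged from -0.16 to 0.12 when 1 library was left out. Sgk1 was at 0.074, 0.026, 0.070 and 0.079 under the same settings, and ranged from -0.21 to 0.20 when 1 library was left out. Neither passed the threshold in any alternative (lowest adjusted p 0.290 and 0.152). The log2 fold changes of the other members ranged from 1.41 to 2.90 for Thrb, 2.01 to 2.56 for Dio2, 1.26 to 1.64 for Hr, 2.22 to 2.76 for Klf9, 1.47 to 2.50 for Nr3c1, -1.45 to -1.16 for Fkbp5, -1.43 to -1.17 for Per1 and -0.40 to -0.24 for Thra.

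The replicate block gave 5 members higher and 3 lower, and 5795 genes higher and 5599 lower among all genes, against 5831 and 5650 without it. The numbers were not treated as pairs: the differences between replicates 1 and 2 of the groups correlated across 11758 genes with r = 0.160, a description over genes, which are not independent replicates, from 2 pairs only.

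With 2 libraries per group, genes with few counts such as Thrb in Ezh2 f/f (41 and 45 counts) have the widest relative counting error of the members.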
